A study of Rattus norvegicus with 12 samples.

Results

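10 genes for chemokines were followed in cultured rat atrial myocytes: Cxcl1, Cxcl10, Cxcl11, Cxcl12, Cxcl16, Ccl2, Ccl5, Ccl7, Ccl20 and Cx3cl1. They were taken by gene name from the table of expression values, which lists 32761 features, and all 10 were found there. Of these, 8 passed the filter on low values, at least 0.5 CPM (read counts scaled to the total of the library) in at least 3 of the 12 libraries, and entered the fit. Of these 8, Cxcl11 and Ccl5 passed only through the 3 libraries of the group in which they are high, so that they had to differ, and their values are given as a description with no test. Cxcl1 and Ccl7 did not pass and are given as reads.

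The cells were iAM-1, a clonal line made from atrial myocytes of newborn Wistar rats by conditional immortalization, so that all samples stem from 1 line. Its growth is kept up by an SV40 large T antigen gene under doxycycline control. All 4 groups were differentiated without doxycycline in medium with 2% FBS, and every title has D9 and P10 in it, whose meaning is not spelled out. Each group had 3 samples. The first group was untransduced, and the others received a lentiviral vector shortly after differentiation began: an shRNA labelled ppluc, which served as the vector control here, Sbk2 shRNA 1, or Sbk2 shRNA 2. The series examined the transcriptome after knockdown of Sbk2, which encodes an SH3-binding kinase, in polyA-selected RNA. The labels do not say whether the samples of a group were separate cultures, so that p-values measure the spread between these samples, which may be technical.

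Chemokines are small secreted or membrane-tethered proteins that direct the migration of leukocytes by binding G protein-coupled receptors on them. In the heart they are best known for bringing monocytes, T cells and neutrophils to injured or infected muscle, and their genes are classic targets of NF-kB, AP-1 and interferon-activated factors. Roles of these genes are known mainly from human and mouse.

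Library totals ran from 30274847 to 47517427 reads, and 1 read was worth 0.0210 to 0.0330 CPM. The targeted gene, Sbk2, had a mean of 45.2 CPM in untransduced cells, 27.1 with ppluc, 1.07 with Sbk2 shRNA 1 and 0.673 with Sbk2 shRNA 2. Set against ppluc, Sbk2 had a log2 change of -4.13 ± 0.10 for shRNA 1 and -4.55 ± 0.10 for shRNA 2 (limma SE, n = 3 each). Of 9 atrial myocyte markers 8 were in the table, and their summed level was 77189 CPM untransduced (74886 to 79333 over libraries), 71600 with ppluc (66667 to 74166), 34386 with shRNA 1 (33435 to 36200) and 20859 with shRNA 2 (18128 to 24330). CPM values are shares of the library total. All 12487 tested features had a median log2 change against ppluc of 0.26 for shRNA 1 and 0.50 for shRNA 2. After trimmed-mean scaling these medians were 0.01 and -0.01, and the split of higher against lower calls went from 6835 against 2334 to 4210 against 4216 with shRNA 1, and from 8120 against 2634 to 4966 against 5111 with shRNA 2. Changes of the chemokines are to be read against these shifts.

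Promoter sequence was at hand for 8 of the 10 genes, from RefSeq on the build GRCr8, as the 300 bases from 250 before to 50 after each gene's start. The promoters of Cxcl10, Cxcl11 and Ccl20 are shown because these genes changed strongly with 1 of the shRNAs, and that of Cxcl16 because this gene rose with both. Capitals mark matches to any of 5 motifs searched on both strands: the NF-kB consensus, the interferon-stimulated response element (ISRE, as TTTC, any 2 bases and TTTC), the AP-1 site (TGANTCA), the GAS element (TTCNNNGAA) and the C/EBP site (TTGCNNAA).
Cxcl10, chr14:15988816-15989115, plus strand: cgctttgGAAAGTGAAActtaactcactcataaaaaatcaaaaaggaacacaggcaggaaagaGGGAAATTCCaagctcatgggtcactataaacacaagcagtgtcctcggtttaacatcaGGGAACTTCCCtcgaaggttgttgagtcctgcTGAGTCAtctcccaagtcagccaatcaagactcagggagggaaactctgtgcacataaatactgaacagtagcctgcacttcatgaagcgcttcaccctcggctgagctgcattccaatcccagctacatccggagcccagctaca
Cxcl11, chr14:15973478-15973777, plus strand: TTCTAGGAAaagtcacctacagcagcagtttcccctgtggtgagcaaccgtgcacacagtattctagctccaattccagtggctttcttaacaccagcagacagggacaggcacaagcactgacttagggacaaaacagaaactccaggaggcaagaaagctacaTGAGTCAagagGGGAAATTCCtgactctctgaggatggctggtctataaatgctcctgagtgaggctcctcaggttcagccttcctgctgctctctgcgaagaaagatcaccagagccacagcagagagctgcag
Ccl20, chr9:91836909-91837208, plus strand: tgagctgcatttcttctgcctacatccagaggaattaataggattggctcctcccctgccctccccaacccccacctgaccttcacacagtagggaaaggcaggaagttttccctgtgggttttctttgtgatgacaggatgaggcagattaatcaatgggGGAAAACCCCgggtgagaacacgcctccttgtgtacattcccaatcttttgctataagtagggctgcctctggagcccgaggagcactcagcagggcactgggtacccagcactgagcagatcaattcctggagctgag
Cxcl16, chr10:55669901-55670200, minus strand: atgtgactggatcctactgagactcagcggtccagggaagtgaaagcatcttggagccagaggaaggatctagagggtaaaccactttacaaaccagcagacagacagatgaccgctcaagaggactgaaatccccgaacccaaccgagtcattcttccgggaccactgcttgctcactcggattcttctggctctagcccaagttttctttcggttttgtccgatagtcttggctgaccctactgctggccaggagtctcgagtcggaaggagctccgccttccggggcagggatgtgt

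An NF-kB match lay in 5 of the 8 promoters, those of Cxcl1, Cxcl10, Cxcl11, Ccl7 and Ccl20, against 7.51% of 33469 promoters of the same length. The Cxcl10 promoter held it at 187 to 178 bases before the start and again, on both strands and overlapping, at 128 to 118 bases before it. It also held an ISRE match, from 243 to 234 bases before the start, which 3.92% of all promoters have and none of the other 7 promoters had. The Cxcl11 promoter paired an AP-1 match at 85 to 79 bases before the start with an NF-kB match at 74 to 65 bases before it. AP-1 matches were in the promoters of Ccl7, Cxcl10 and Cxcl11 (7.33% of all promoters), and GAS matches in those of Ccl7 and Cxcl11 (8.87%). No C/EBP match, found in 10.6% of all promoters, was in any of the 8, and the promoters of Cxcl16, Cxcl12 and Cx3cl1 held none of the 5 letter patterns. A match is a description of the letters and not evidence of binding.

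**Figure D1:**
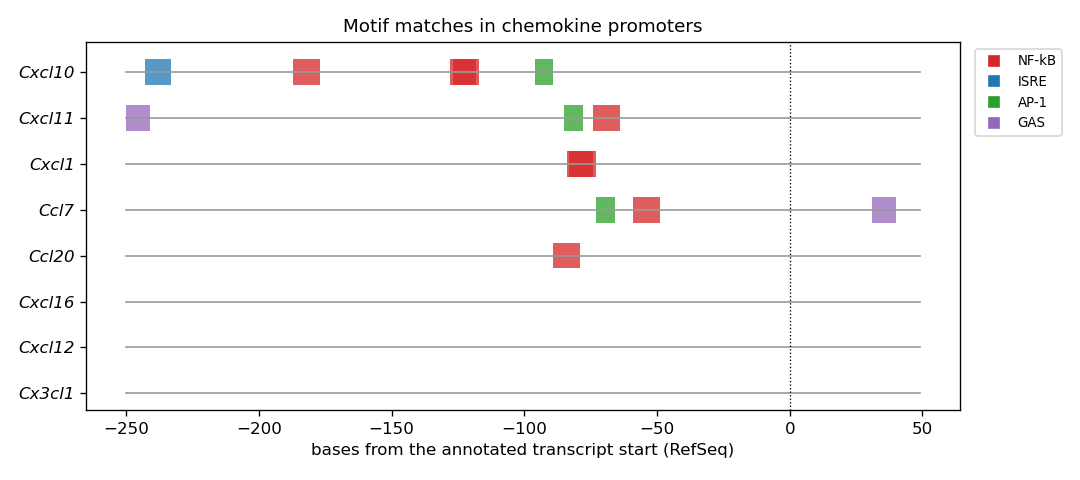
Positions of motif matches in the promoters of 8 chemokine genes, with the distance from the annotated start in bases on the x axis and 1 gene per line. Darker red marks overlapping matches on both strands. Cxcl10, Cxcl11 and Ccl7 hold several kinds of match, and the lines of Cxcl16, Cxcl12 and Cx3cl1 are empty.

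Per transcript length, Cxcl16 and Cx3cl1 were the most abundant of the 10 in untransduced cells. Their authors' mean TPM (a level scaled also by transcript length) was 10.3 and 7.02, followed by Cxcl10 at 2.73, Cxcl12 at 0.599, Ccl2 at 0.499, Ccl7 at 0.491, Ccl20 at 0.254 and Cxcl11 at 0.0456, with Cxcl1 and Ccl5 listed at 0. With Sbk2 shRNA 1 the order was led by Cxcl16 at 40.8, Ccl20 at 11.5 and Cxcl10 at 11.1. With Sbk2 shRNA 2 it was led by Cxcl10 at 104.3, Cxcl16 at 42.7 and Ccl5 at 8.998. Thus the gene with the highest TPM was Cxcl16 in 3 groups and Cxcl10 in the cells with shRNA 2. TPM values of single libraries were not recovered, so that the spread behind this order is not known, and close neighbours such as Ccl20 and Cxcl10 with shRNA 1 are not ranked.

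Cxcl10 and Cxcl11 encode ligands of the receptor CXCR3, which attract activated T cells and natural killer cells, and both are named for their induction by interferon. Cxcl10 (ENSRNOG00000022256, chromosome 14:17210733-17212930 in Rnor_6.0) stood at 1.85, 1.52 and 1.62 CPM in the untransduced libraries, 4.59, 5.11 and 4.08 with ppluc, 6.67, 6.98 and 7.29 with shRNA 1, and 58.6, 65.4 and 75.9 with shRNA 2. The 4 groups did not overlap, with untransduced cells lowest and shRNA 2 far above the rest. The ppluc vector went with a rise of 1.23 ± 0.11 over untransduced cells (log2, limma SE, Benjamini-Hochberg adjusted p = 3.5e-08). Relative to ppluc, Cxcl10 rose by 0.56 ± 0.11 with shRNA 1 (adjusted p = 0.00019) and by 3.72 ± 0.11 with shRNA 2 (adjusted p = 1.2e-15), a 14.5-fold higher mean. After trimmed-mean scaling these rises were 0.31 and 3.20.

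Cxcl11 (ENSRNOG00000022298, chromosome 14:17195014-17198291) lies beside Cxcl10 and was nearly silent outside 1 group. Its reads were 1, 1 and 0 in the untransduced libraries, 0, 8 and 1 with ppluc, 1, 1 and 4 for shRNA 1, and 43, 45 and 56 for shRNA 2. In CPM the libraries with shRNA 2 lay at 1.39 to 1.52, above all 9 other libraries, which reached 0.205 at most. The fitted difference of shRNA 2 was 1.77 from ppluc and 1.81 from shRNA 1 (log2), while that of shRNA 1 from ppluc was -0.04. Over the 3 libraries the 144 reads with shRNA 2 against 2 in untransduced cells gave a ratio of 72.9 with a 95% counting interval of 19.8 to 608, which like the other intervals on reads covers counting error only. Both genes overlap Art3, an ADP-ribosyltransferase gene, and the sources used here do not say whether reads were counted by strand. Art3 had 560 CPM untransduced, 445 with ppluc, 53.4 with shRNA 1 and 230 with shRNA 2, so that it was lower with shRNA 2 than with ppluc, where Cxcl10 and Cxcl11 were higher, but 2.10 (log2) higher with shRNA 2 than with shRNA 1, as they also were. The part of Art3 reads in their values was not tested.

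Ccl5 encodes RANTES, a chemokine that attracts T cells and monocytes. Its transcript (ENSRNOG00000010906, chromosome 10:70739800-70744315) was seen in 50, 44 and 86 reads of the libraries with shRNA 2, in 1 read of 1 ppluc library, and in 0 reads of the other 8 libraries. It was therefore at or below the floor of 3 reads in every library without shRNA 2. The ratio of shRNA 2 to ppluc was 225 on 180 reads against 1, with a 95% counting interval of 40.0 to 8954. Against shRNA 1 the level was at least 20.2-fold higher, and against untransduced cells at least 19.9-fold higher, taking 3 reads per library as the floor of the groups at 0. The fitted log2 difference from ppluc was 2.14, a value that depends on the 0.5 CPM added before the logarithm.

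Cxcl1, a neutrophil attractant that acts through CXCR2, was not tested. It had 0 reads in all 3 untransduced libraries, 1 read in each ppluc library, 1 read in 1 of the libraries with shRNA 1, and 6, 22 and 6 reads with shRNA 2. The ratio of shRNA 2 to ppluc was 14.2 on 34 reads against 3 (95% counting interval 4.46 to 72.2), with 1 library holding 22 of the 34 reads. Against untransduced cells it was at least 3.88-fold higher with shRNA 2. Cxcl1 lies at chromosome 14:18743685-18745457.

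**Figure D2:**
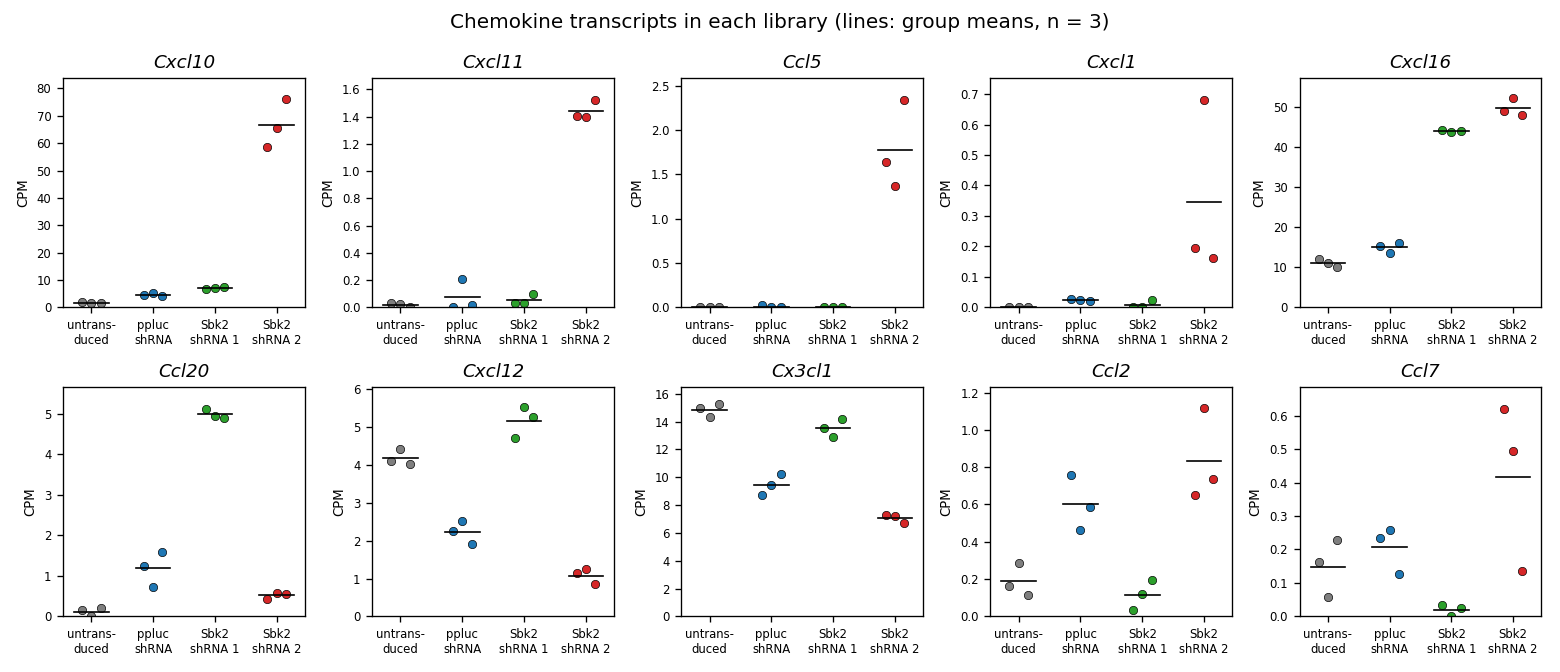
CPM of the 10 chemokine genes, with the 4 groups on the x axis, 1 point per library and a line at the group mean (n = 3). The scale of the y axis differs between panels and starts at 0. Cxcl10, Cxcl11, Ccl5 and Cxcl1 stand highest with Sbk2 shRNA 2, Ccl20 with shRNA 1, and Cxcl16 with both.

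Cxcl16 and Cx3cl1 are the 2 chemokines made as transmembrane proteins, whose chemokine domain sits on a mucin-like stalk and can be shed by the proteases ADAM10 and ADAM17. Cxcl16, the ligand of CXCR6 and also a scavenger receptor for oxidized lipids, rose with both shRNAs. Its libraries (ENSRNOG00000026647, chromosome 10:57060007-57064600) held 12.2, 11.1 and 10.2 CPM untransduced, 15.3, 13.7 and 16.1 with ppluc, 44.2, 43.9 and 44.0 with shRNA 1, and 49.1, 52.4 and 48.0 with shRNA 2. Both shRNA groups lay far above the controls and close to each other. The rise against ppluc was 1.53 ± 0.08 with shRNA 1 (adjusted p = 4e-12) and 1.70 ± 0.08 with shRNA 2 (adjusted p = 2.1e-13), 2.93-fold and 3.32-fold in the means. The difference between the shRNAs, 0.18 ± 0.08 (adjusted p = 0.039), turned to -0.09 (adjusted p = 0.29) after trimmed-mean scaling. Zmynd15, which overlaps Cxcl16, also rose with both shRNAs, by 2.48 and 2.29, and at 3.98 and 3.45 CPM it took fewer reads than Cxcl16.

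Cx3cl1 encodes fractalkine, the ligand of CX3CR1 on monocytes, microglia and natural killer cells. Its libraries (ENSRNOG00000016326, chromosome 19:10644244-10653800) held 15.0, 14.3 and 15.2 CPM untransduced, 8.72, 9.45 and 10.2 with ppluc, 13.6, 12.9 and 14.2 with shRNA 1, and 7.28, 7.19 and 6.72 with shRNA 2. The shRNA 1 libraries thus lay between the ppluc and the untransduced ones, and the shRNA 2 libraries below all others. Against untransduced cells Cx3cl1 fell by 0.63 ± 0.09 with ppluc (adjusted p = 6.7e-06). Against ppluc it rose by 0.50 ± 0.09 with shRNA 1 (adjusted p = 4.6e-05) and fell by 0.40 ± 0.09 with shRNA 2 (adjusted p = 0.00034). After trimmed-mean scaling these 2 changes were 0.24 and -0.90.

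Cxcl12, or SDF-1, is a homeostatic chemokine that binds CXCR4 and the scavenger receptor ACKR3. Its libraries (ENSRNOG00000013589, chromosome 4:149261044-149273891) held 4.11, 4.41 and 4.02 CPM untransduced, 2.24, 2.52 and 1.92 with ppluc, 4.72, 5.53 and 5.27 with shRNA 1, and 1.14, 1.24 and 0.844 with shRNA 2. No 2 groups overlapped, with shRNA 1 highest and shRNA 2 lowest. It fell by 0.79 ± 0.13 with ppluc against untransduced cells (adjusted p = 6.2e-05). Against ppluc it rose by 1.06 ± 0.13 with shRNA 1 (adjusted p = 9.7e-07) and fell by 0.79 ± 0.13 with shRNA 2 (adjusted p = 2e-05). Between shRNA 1 and untransduced cells the difference was 0.28 (adjusted p = 0.068), which did not pass the test.

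Ccl20 attracts CCR6-bearing T cells, B cells and dendritic cells. Its reads (ENSRNOG00000015992, chromosome 9:88918433-88921001) numbered 5, 0 and 7 untransduced, 48, 28 and 76 with ppluc, 155, 163 and 199 for shRNA 1, and 13, 19 and 20 for shRNA 2. In CPM these were 0 to 0.200, 0.719 to 1.60, 4.90 to 5.12 and 0.425 to 0.589, again with no overlap between groups. Ccl20 rose by 1.43 ± 0.18 with ppluc against untransduced cells (adjusted p = 3.1e-06). Against ppluc it rose by 1.73 ± 0.18 with shRNA 1 (adjusted p = 1.2e-07) and fell by 0.70 ± 0.18 with shRNA 2 (adjusted p = 0.0018). Its mean was 4.19-fold higher with shRNA 1 than with ppluc and 2.29-fold lower with shRNA 2 than with ppluc.

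Ccl2 and Ccl7, neighbours on chromosome 10 at 69412017-69413870 and 69423086-69424979, encode monocyte attractants that act through CCR2. Ccl2 had 5, 10 and 4 reads untransduced, 29, 18 and 28 with ppluc, 1, 4 and 8 with shRNA 1, and 20, 36 and 27 with shRNA 2. It was therefore higher in each ppluc and each shRNA 2 library than in any untransduced or shRNA 1 library, in CPM as in reads. Ccl2 rose by 0.68 ± 0.18 with ppluc against untransduced cells (adjusted p = 0.0035) and fell by 0.84 ± 0.18 with shRNA 1 against ppluc (adjusted p = 0.0004). With shRNA 2 against ppluc the difference was 0.27 ± 0.18 (adjusted p = 0.17) and the libraries overlapped. After trimmed-mean scaling that value was -0.04 (adjusted p = 0.83). Ccl7, not tested, had 5, 2 and 8 reads untransduced, 9, 10 and 6 with ppluc, 1, 0 and 1 with shRNA 1, and 19, 16 and 5 with shRNA 2. Its ratio of ppluc to shRNA 1 was 10.4 on 25 reads against 2 (95% counting interval 2.59 to 90.6), and that of shRNA 2 to shRNA 1 was 20.8 on 40 against 2 (5.41 to 178).

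Counts are given over the 6 genes that remain when Cxcl11 and Ccl5 are left out: Cxcl10, Cxcl16, Cx3cl1, Cxcl12, Ccl20 and Ccl2. With ppluc against untransduced cells 4 rose and 2 fell, where 57.2% of all tested features were called, 24.9% higher and 32.3% lower. With shRNA 1 against ppluc 5 rose and 1 fell, against a background of 73.4% called, 54.7% higher and 18.7% lower. With shRNA 2 against ppluc 2 rose and 3 fell, against 86.1% called, 65.0% higher and 21.1% lower. With so few genes and most features called, these counts say little about chemokines as a set. The median log2 change of the 6 was 0.55, 0.81 and -0.06 in these comparisons, beside -0.04, 0.26 and 0.50 for all tested features, and 0.60, 0.57 and -0.47 after trimmed-mean scaling.

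Between the shRNAs, 3 of the 6 were higher and 3 lower with shRNA 2, with 81.0% of all features called, 53.3% higher and 27.8% lower. The higher ones were Cxcl10, Ccl2 and Cxcl16, the last of these not called after trimmed-mean scaling, and the lower ones Ccl20, Cxcl12 and Cx3cl1. Against untransduced cells, 3 rose and 0 fell with shRNA 1 (75.7% of features called, 51.4% higher and 24.3% lower). These were Cxcl10, Cxcl16 and Ccl20. With shRNA 2 against untransduced cells 4 rose and 2 fell (85.7% called, 62.7% higher and 23.0% lower), the falling ones being Cxcl12 and Cx3cl1.

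Libraries of the compared groups did not overlap for 6 of these 6 genes between ppluc and untransduced cells (64.4% of all features), for 6 between shRNA 1 and ppluc (76.6%) and for 5 between shRNA 2 and ppluc (85.2%). They did not overlap for 6 between the shRNAs (81.1%), for 5 between shRNA 1 and untransduced cells (79.3%) and for 6 between shRNA 2 and untransduced cells (85.6%). The gene that overlapped in both cases of 5 was Ccl2. The comparisons share the libraries of ppluc, of untransduced cells or of an shRNA and are not independent of each other.

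**Figure D3:**
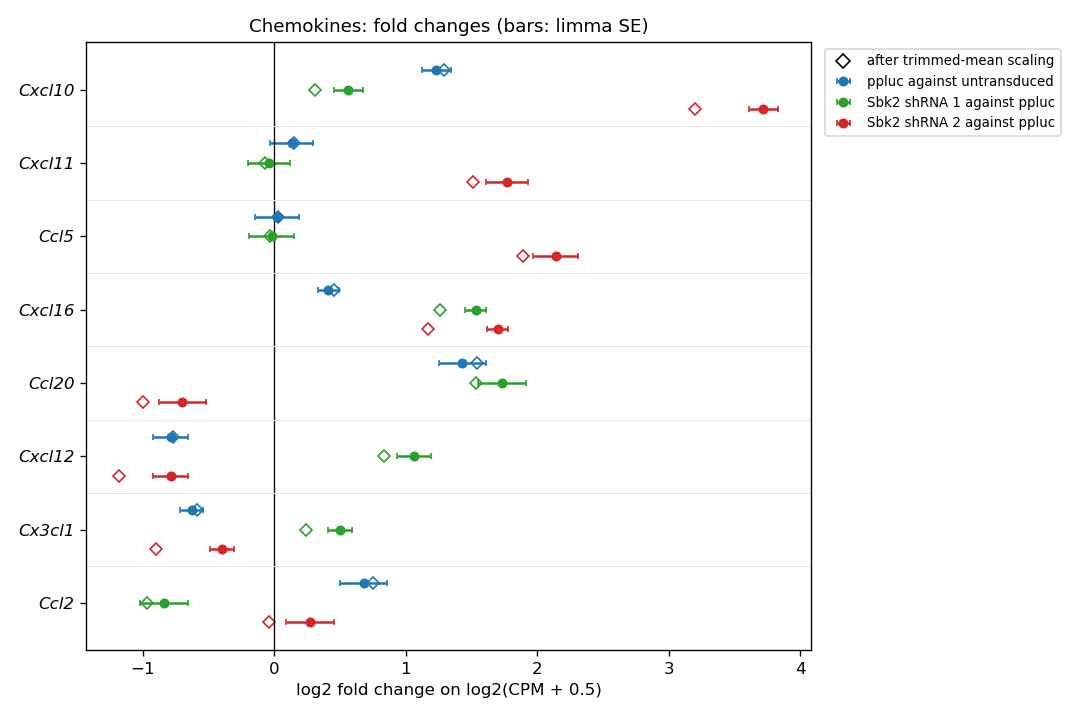
Log2 fold changes of the 8 chemokine genes in the fit (x axis) in 3 comparisons, with filled points and limma standard errors for the deposited scale and open diamonds after trimmed-mean scaling. Ccl20, Cxcl12 and Cx3cl1 lie right of 0 with shRNA 1 and left of it with shRNA 2 on both scales, while Ccl2 with shRNA 2 changes from 0.27 to -0.04. Cxcl11 and Ccl5 passed the filter only through the shRNA 2 libraries.

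The 3 genes closest in pattern to Cxcl10 over the 12 libraries were Sars, Arl8a and Slc3a2, each with a Pearson r of 0.997 on log2(CPM + 0.5). Sars encodes seryl-tRNA synthetase, Arl8a a lysosomal small GTPase and Slc3a2 the heavy chain of amino acid transporters. Slc3a2 stood at 115.5 CPM untransduced, 188.9 with ppluc, 242.8 with shRNA 1 and 1191 with shRNA 2. Closest to Ccl20 were Anxa1 (r = 0.987), which encodes annexin A1, and 2 genes without a given name, LOC100360087 and LOC100359668. Closest to Cxcl16 were Prkcsh (r = 0.996), Alcam and Inpp1. For Ccl5, which was near 0 outside 1 group, no such gene is given, since its likeness to other genes that pass the filter only there is set by the filter. Libraries of a group share their treatment, so that such correlations describe the 4 groups more than 12 independent points.

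Of 27 other chemokine genes 26 were in the table, 11 of them without a read in any library, and 1 passed the filter. This was Ccl27, a ligand of CCR10, with 1.71 CPM untransduced, 5.33 with ppluc, 3.05 with shRNA 1 and 4.05 with shRNA 2. It rose by 1.39 ± 0.13 with ppluc and fell by 0.71 ± 0.13 with shRNA 1 against ppluc (adjusted p = 6.9e-05), and by 0.35 ± 0.13 with shRNA 2 (adjusted p = 0.018). Ccl27 (chromosome 5:58159066-58163584) overlaps Il11ra1 (58151985-58159072) by only a few bases. Il11ra1 had 189 CPM with ppluc, and the part of its reads in the values of Ccl27 was not tested.

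Receptors for the 10 chemokines were hardly found in the same RNA. Of 23 receptor genes 22 were in the table, 12 had no read in any of the 12 libraries, and 3 passed the filter, all of them atypical or chemokine-binding receptors. Cxcr4, Ccr1, Ccr2, Ccr3, Ccr4, Ccr6 and Cx3cr1 were among those without a read. Ackr3, the scavenger receptor for CXCL12 and CXCL11, stood at 79.2, 81.0 and 76.7 CPM untransduced, 43.1, 36.5 and 31.6 with ppluc, 37.2, 33.6 and 33.3 with shRNA 1, and 4.83, 2.14 and 3.57 with shRNA 2. It fell by 1.09 ± 0.16 with ppluc against untransduced cells (adjusted p = 1.8e-05) and by 3.27 ± 0.16 with shRNA 2 against ppluc (adjusted p = 1.2e-12). With shRNA 1 against ppluc the value was -0.08 ± 0.16 (adjusted p = 0.66). Ackr4, which scavenges CCL19, CCL21 and CCL25, fell by 1.37 ± 0.18 with shRNA 1 (adjusted p = 1.4e-06) and by 0.68 ± 0.18 with shRNA 2 (adjusted p = 0.0016). Ccrl2, which binds chemerin, rose by 0.49 ± 0.12 with shRNA 2 (adjusted p = 0.0013), a change that was -0.01 after trimmed-mean scaling.

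All 7 genes for proteases that cut chemokines were in the table, and 5 passed the filter. With ppluc all 5 rose against untransduced cells, where 24.9% of all features were called higher. Against ppluc, 1 rose and 3 fell with shRNA 1, where 54.7% of all features were higher and 18.7% lower. With shRNA 2 also 1 rose and 3 fell, against 65.0% and 21.1%. After trimmed-mean scaling the split with shRNA 2 was 0 and 4, where 39.9% of all features were higher and 41.0% lower. Adam10, the main constitutive sheddase of CX3CL1 and CXCL16, stood at 304.8, 294.4 and 294.6 CPM untransduced, 336.0, 319.5 and 330.6 with ppluc, 56.2, 52.2 and 54.0 with shRNA 1, and 262.6, 297.4 and 277.5 with shRNA 2. It was low in each library with shRNA 1 and in no other. Adam10 fell by 2.59 ± 0.05 with shRNA 1 (adjusted p = 2.4e-17) and by 0.24 ± 0.05 with shRNA 2 (adjusted p = 0.00017). Adam17, the inducible sheddase, fell by 0.65 ± 0.05 and 0.74 ± 0.05, and the proprotein convertase gene Furin by 0.25 ± 0.05 and 0.90 ± 0.05. After trimmed-mean scaling the change of Adam10 was -2.86 with shRNA 1 and -0.78 with shRNA 2, and that of Adam17 -0.93 and -1.28. Both sheddase transcripts were thus lower with both shRNAs than with ppluc, Adam10 far more so with shRNA 1. Adam17 had itself risen with ppluc against untransduced cells, by 0.82 ± 0.05. Against untransduced cells Adam17 was at 0.17 with shRNA 1, called higher, and at 0.07 with shRNA 2, not called. Adam10 was at -2.45 with shRNA 1, called lower, and at -0.10 with shRNA 2, not called. After trimmed-mean scaling these values were -0.07 and -0.42 for Adam17, and -2.69 and -0.60 for Adam10. A link to the level of Cxcl16 was not tested.

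**Figure D4:**
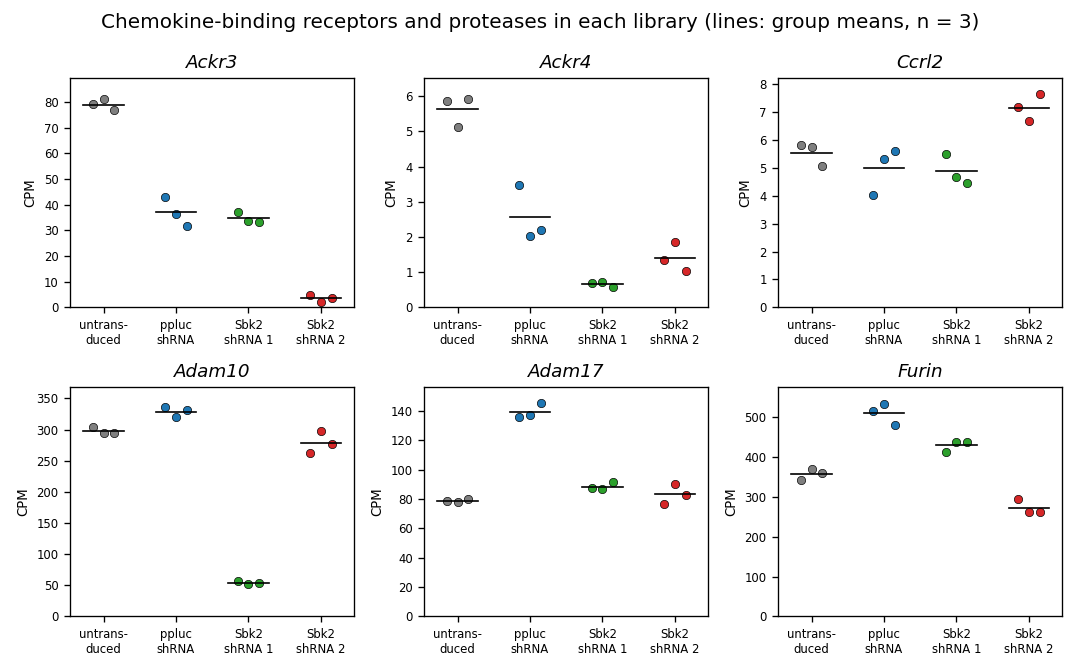
CPM of 3 chemokine-binding receptor genes (top) and 3 protease genes (bottom), with the groups on the x axis, 1 point per library and a line at the group mean (n = 3). Ackr3 is lowest with Sbk2 shRNA 2, at 2.14 to 4.83 CPM, and Adam10 with Sbk2 shRNA 1, at 52.2 to 56.2 CPM.

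Among 22 genes for signals that induce chemokines and their sensors or receptors, 6 had no read in any library: Ifnb1, Ifng, Ifnl3, Tnf, Il1a and Il1b. Transcripts of these interferon genes and of the cytokines TNF and IL-1 were thus not detected at this depth. Other interferon genes were not in the list. Of the 13 that passed the filter, 6 rose and 2 fell with ppluc against untransduced cells, 10 rose and 2 fell with shRNA 1 against ppluc, and 10 rose and 2 fell with shRNA 2. The shares of all features called were 57.2%, 73.4% and 86.1%, with 24.9%, 54.7% and 65.0% higher, so that with shRNA 2 most features rose as well. After trimmed-mean scaling the last 2 splits were 5 against 3 and 7 against 4. On that scale 33.8% of all features were higher and 33.9% lower with shRNA 1, and 39.9% and 41.0% with shRNA 2. Tnfrsf1b, the second TNF receptor, rose by 1.29 ± 0.06 with shRNA 1 (adjusted p = 3.1e-12) and fell by 1.81 ± 0.06 with shRNA 2 (adjusted p = 7.1e-15). Il1rap, the accessory chain of the IL-1 receptor, rose by 1.66 ± 0.11 and 1.90 ± 0.11. Ifih1, which encodes the double-stranded RNA sensor MDA5 and is itself induced by interferon, rose by 0.95 ± 0.07 with ppluc, fell by 0.28 ± 0.07 with shRNA 1 and rose by 1.21 ± 0.07 with shRNA 2, the last 2 against ppluc. Ifnar2, a chain of the type I interferon receptor, fell by 0.92 ± 0.06 with shRNA 2 (adjusted p = 9.4e-11).

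All 18 genes for transcription factors that act on chemokine genes were tested. With shRNA 2 against ppluc 17 rose and 1 fell, against 65.0% of all features higher and 21.1% lower, with a median of 1.16 beside 0.50 for all tested features. With shRNA 1 9 rose and 3 fell, near the background of 54.7% higher and 18.7% lower, with a median of 0.30 beside 0.26. After trimmed-mean scaling the splits were 14 against 2 and 6 against 7, with medians of 0.64 and 0.02, where 39.9% of all features were higher and 41.0% lower with shRNA 2, and 33.8% and 33.9% with shRNA 1. With ppluc against untransduced cells 6 rose and 2 fell, against 24.9% of all features higher and 32.3% lower, among them Irf7, a master regulator of interferon genes, and Irf1, which rose by 1.14 ± 0.10 and 0.84 ± 0.06.

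The NF-kB subunit genes Relb and Nfkb2, of the noncanonical branch, rose with shRNA 2, and the rise was not confined to that branch. Rela rose by 1.12 ± 0.05, Rel by 1.19 ± 0.12 and Nfkb1 by 0.24 ± 0.04 with shRNA 2 against ppluc. After trimmed-mean scaling these values were 0.59, 0.70 and -0.30. Relb stood at 10.7, 10.8 and 11.0 CPM with ppluc, 11.9, 11.5 and 12.3 with shRNA 1, and 52.8, 55.8 and 59.4 with shRNA 2, a rise of 2.32 ± 0.08 with shRNA 2 (adjusted p = 1.3e-14). Nfkb2 rose by 1.72 ± 0.06 with shRNA 2 and by 0.52 ± 0.06 with shRNA 1. Of the AP-1 genes, Fos stood at 3.68, 3.62 and 3.26 CPM with ppluc, 3.24, 3.55 and 3.13 with shRNA 1, and 39.4, 40.6 and 35.5 with shRNA 2. The rise of Fos with shRNA 2 was 3.28 ± 0.11 (adjusted p = 3.2e-15), while its value with shRNA 1 was -0.08 ± 0.11 (adjusted p = 0.51). Jun rose with both, by 1.46 ± 0.05 with shRNA 1 and 1.99 ± 0.05 with shRNA 2. Irf9, which encodes the DNA-binding part of an interferon-activated complex, rose by 1.72 ± 0.08 with shRNA 2 (adjusted p = 2.6e-13), with 0.06 ± 0.08 (adjusted p = 0.5) for shRNA 1. Relb, Fos and Irf9 thus stood apart with shRNA 2 in the same libraries as Cxcl10, Cxcl11 and Ccl5. Others of the list did so too, such as Irf7, with means of 167.8 CPM with shRNA 2 and 63.6 with ppluc, and Nfkb2. Libraries of shRNA 2 and ppluc did not overlap for 85.2% of all tested features. A link between these factors and the chemokines was not tested.

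**Figure D5:**
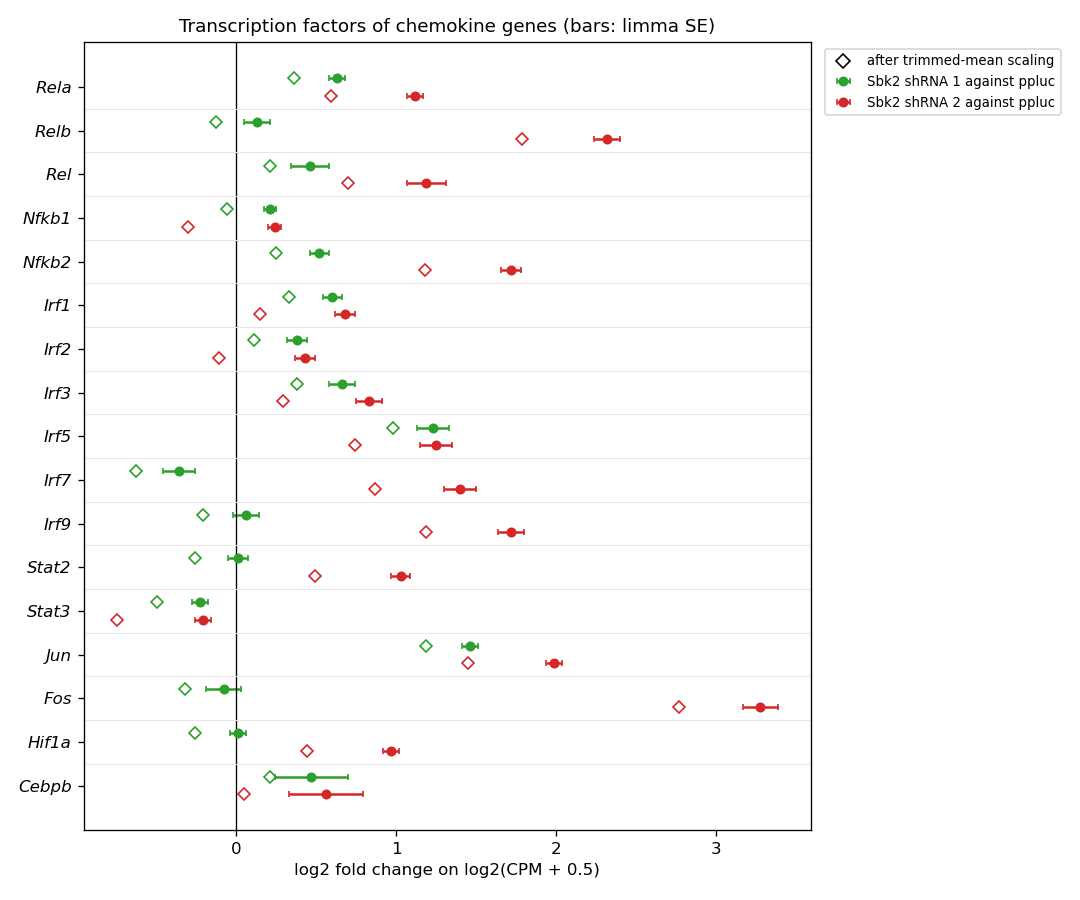
Log2 fold changes against ppluc (x axis) of transcription factor genes of the list, with filled points and limma standard errors on the deposited scale and open diamonds after trimmed-mean scaling. With Sbk2 shRNA 2 the plotted genes other than Stat3 lie right of 0, while Nfkb1 and Irf2 move to the left side after that scaling.

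The next list held 14 genes that regulate chemokine transcription or mRNA, most of them as brakes. Of these, 6 rose and 4 fell with shRNA 1 against ppluc, and 6 rose and 3 fell with shRNA 2. After trimmed-mean scaling the splits were 5 against 7 and 4 against 8. On the deposited scale 73.4% and 86.1% of all features were called, with 54.7% and 65.0% higher and 18.7% and 21.1% lower. After that scaling 33.8% of all features were higher and 33.9% lower with shRNA 1, and 39.9% and 41.0% with shRNA 2. With so few genes and most features called, these counts say little about the list as a set. Tnip1, which encodes an inhibitor of NF-kB signalling that binds the ubiquitin-editing enzyme A20, stood at 310.7, 322.1 and 314.8 CPM with ppluc, 298.4, 304.2 and 292.5 with shRNA 1, and 110.3, 89.0 and 98.4 with shRNA 2, a fall of 1.67 ± 0.06 with shRNA 2 (adjusted p = 8.8e-15). Tnfaip3, the gene of A20 and itself an NF-kB target, rose by 0.67 ± 0.17 with shRNA 1 and by 2.38 ± 0.17 with shRNA 2. Usp18, an interferon-induced brake on the type I interferon receptor, rose by 0.96 ± 0.20 with ppluc against untransduced cells, fell by 0.90 ± 0.20 with shRNA 1 and rose by 2.56 ± 0.20 with shRNA 2, the latter 2 against ppluc. With shRNA 1 the smallest p of the list belonged to Zfp36l2, Nfkbie, Cyld and Zfp36l1. After trimmed-mean scaling these stood at 1.03, 0.45, 0.15 and -0.53 with shRNA 1 against ppluc. With shRNA 2 they stood at -0.10, 1.21, 0.40 and -0.51 on that scale.

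Markers of leukocytes, the usual source of several of these chemokines, were checked in the same libraries. Of 10 such genes 9 were in the table, and the defining markers Ptprc, Adgre1, Aif1 and Cd3e had 0 reads in all 12 libraries. The summed level of the list was 0.513 to 0.648 CPM untransduced, 0.924 to 1.49 with ppluc, 4.46 to 5.74 with shRNA 1 and 15.1 to 18.2 with shRNA 2. It came mostly from Cd14, the lipopolysaccharide co-receptor, at 0.365, 0.980, 4.98 and 15.5 CPM in the 4 groups. Cd14 thus moved in the same direction as Cxcl10 over the groups, and its part in the chemokine values was not tested. Of the fibroblast markers, Lum and Tcf21 were at 0 in all libraries, and the sum of all 6 was 76.9 to 88.4 CPM untransduced, 115.8 to 149.2 with ppluc, 25.0 to 28.9 with shRNA 1 and 14.6 to 20.4 with shRNA 2, led by Col1a1. Of the endothelial markers, Cdh5 and Cldn5 were at 0 in all libraries, and the sum of the 5 in the table was 130.0 to 152.1, 142.4 to 153.6, 209.5 to 224.7 and 56.4 to 97.8 CPM in the same order, led by Kdr. The part of these lists, and of the lower sum of myocyte markers with both shRNAs, in the chemokine values was not tested. These values are from RNA of whole cultures, in which fewer cells of a type and less RNA per cell cannot be told apart.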

How the data were processed

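PolyA-selected RNA of 12 samples of iAM-1 cells was sequenced as paired 150-bp reads from a strand-marking kit, per the labels' protocols. The deposited CPM and TPM values are means over the 3 libraries of a group, as averaged by the authors. The deposited loci (unit: other) are in Rnor_6.0, and 1 was added to their starts, which count from 0. Rnor_6.0 and, with no role stated, DESeq2 are named in the submitters' processing notes. The sources used here do not give the aligner, the counting tool or the use of strand.

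Single libraries were recovered by arithmetic: a stored mean is the sum of 3 values, each a whole number of reads over a library total, and triples of whole reads that return the mean to the last digit were searched. Of all features, 99.79 to 99.86% per group had a single exact triple or were 0. For 2 to 34 features per group several triples remained, and the widest within the usual spread was kept. The recovered reads of some libraries summed to more than the library total, so that not all triples can be right. In ppluc library B they summed to 39038742 against a total of 38944015, and in shRNA 2 library C to 36930109 against 36734685. All of 2000 low values per group were returned exactly, and 0 of 2000 shifted control values were. Libraries are ordered within a group by total, which carries no pairing. The depth of 30274847 to 47517427 reads makes 3 reads 0.0631 to 0.0991 CPM.

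Features with at least 0.5 CPM in at least 3 libraries (12487, after 6 without a triple were dropped) were tested with limma 3.58.1 (trend) in R 4.3.3 on log2(CPM + 0.5), with 1 mean per group over all 12 libraries. Fold changes are on this scale, on which changes of low genes come out too small. A feature was called where its p, adjusted by Benjamini-Hochberg across the features tested, was under 0.05, in each of 6 comparisons. Level ratios are of the authors' means, and ratios of few reads have exact 95% counting intervals. The fit and the recovery were tested on simulated data. Other steps used matplotlib 3.10.9, scipy 1.17.1, pandas 2.3.3 and numpy 2.4.6 under Python 3.11.15. Alternatives were trimmed-mean and median-of-ratios scaling, pseudocounts of 0.1 and 1, no filter or one at 1 CPM, voom weights, a fit of the compared groups only, leaving out each library, and TPM means.

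The chemokines and the other lists were chosen with earlier results of these data known. All 10 chemokines are named, then up to 4 called genes with the smallest p per list and comparison, and the 3 genes nearest in pattern to the 4 chemokines with the widest range, except Ccl5. Receptors or cytokines without a read, cell markers and the NF-kB subunit genes Rela, Rel and Nfkb1 are named besides. Of the receptor list 1 gene and of the transcription factor list 1 gene are counted but not reported here by name.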

Additional observations from a re-analysis of the deposited data

Results flagged for a closer look

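The genes Ccl20, Cxcl12 and Cx3cl1 went in opposite directions with the 2 shRNAs against Sbk2, and the difference between the shRNAs passed limma's test in each. Ccl20 was 2.43 lower with shRNA 2 than with shRNA 1 (a log2 difference of -2.43, adjusted p = 6.7e-10), having risen by 1.73 with shRNA 1 and fallen with shRNA 2 (-0.70) against ppluc. For Cxcl12 the difference was -1.85 (adjusted p = 2.9e-10), from 1.06 and -0.79 against ppluc. For Cx3cl1 it was -0.89 (adjusted p = 2.1e-08), from 0.50 and -0.40. The libraries of the 2 shRNAs did not overlap for any of these genes, as was so for 81.1% of all tested features, of which 81.0% were called. Sbk2 itself was low with both shRNAs, at 1.07 and 0.673 CPM.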

How the results depend on the processing

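No paired analysis was possible because the recovered libraries carry no replicate number. Trimmed-mean and median-of-ratios scaling each turned the direction of the same pair of results, Ccl2 with shRNA 2 against ppluc (to -0.04 and -0.03) and Cxcl16 with shRNA 2 against shRNA 1 (to -0.09 and -0.07); as both divide out the shift of all genes, small differences move with it. They also called Cx3cl1 lower with shRNA 1 than in untransduced cells, at -0.36 and -0.35. Voom weights turned Cxcl11 with shRNA 1 against ppluc to 0.54, uncalled. Leaving out single libraries turned Cxcl11, uncalled, within -0.03 to 0.22 for ppluc against untransduced cells and within -0.13 to 0.12 for shRNA 1 against ppluc, both through ppluc library B, which holds 8 of the 9 reads. The difference of Cxcl16 between the shRNAs, 0.14 to 0.20 without single libraries, lost its call in 4 of them and with no filter. The count of chemokines called between the shRNAs was 5 to 7 without single libraries, and 5 without library B of shRNA 2, where 6 passed the filter. With all libraries it was 8, where 81.0% of all features were called. Where Ccl5 and Cxcl11 passed the filter they had to differ, so that these counts are not a result about chemokines. Ccl5 and Cxcl11 fall under the filter without any 1 library of shRNA 2, and a filter at 1 CPM leaves 7 of the chemokines. Cxcl12 with shRNA 1 against untransduced cells was called with a pseudocount of 1, voom weights or the compared groups alone. With TPM means, 22 of 48 log2 ratios moved by more than 1 SD; the cause was not tested. The other direction and call results of the 8 tested genes were the same under these alternatives. Depth limits Cxcl1, Ccl7, Cxcl11 and Ccl5, whose low groups hold 0 to 10 reads per library.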
